A study of Mus musculus with 16 samples.

Results

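Microglia sorted from the retinas of 18-month-old mice were compared with microglia sorted from the retinas of 12-month-old mice. The comparison takes the 4 arrays whose labels give 18 months and the 4 whose labels give 12 months, 8 of the 16 arrays of the series, over all 16755 features of the array. All mice were wild type C57BL/6, with no treatment or transgene in the labels, and the remaining arrays are of 3 and 24 months. The cells were gated by flow cytometry on the integrin CD11b alone, which monocytes, macrophages, neutrophils and natural killer cells carry too. Affymetrix Mouse Exon 1.0 ST arrays received the biotin-labelled product of an amplification that began with under 5 ng of total RNA. A level below is a log2 value as deposited, and a log2 change is the mean level at 18 months minus that at 12 months, so that a change of 1 is a doubling of the signal. The question the series title gives is how gene expression in retinal microglia changes with age.

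Microglia are the resident macrophages of the retina. They hold themselves in a surveying state through signals such as CSF1, TGF-beta and the neuronal chemokine fractalkine, they extend processes towards ATP released by injured cells, and they clear debris and synapses with the help of complement and phagocytic receptors. In ageing retinas they are known for slower process movement, for collecting in the subretinal space next to the photoreceptors and for drifting towards an activated state. A suspension of retina also holds rods, cones, bipolar cells and Müller glia in large numbers, so markers of those cells were read beside the microglial genes.

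Each age has 4 biological replicates by its labels, which leave unsaid whether a replicate is 1 mouse or several pooled. The p-values therefore cover only the spread among these arrays. Array medians were 6.88 to 6.99 at 18 months and 7.04 to 7.18 at 12 months. Every array carries a running number in the labels, whose meaning they do not give. The 18-month arrays have numbers 9, 10, 12 and 14 and the 12-month arrays 1, 2, 3 and 6, so a difference between early and late numbers and a difference between the ages cannot be told apart in these 8 arrays. Replicates 1 and 2 at 18 months were the most alike of the 28 pairs of arrays, with a Spearman correlation of 0.990 where the other 27 pairs had 0.858 to 0.957. Their levels differed with an SD of 0.225, and those of the other pairs with SDs of 0.432 to 0.903. The labels call both biological replicates, and whether they are 2 separate samples was not tested. SDs, SEs, intervals and p-values below count them as 2 of the 4 arrays of their age. Both arrays of the pair lay below the other 6 arrays in 6838 features (40.8%) and above them in 2536 (15.1%). Changes without this pair therefore stand beside the list medians, and beside those of the named genes whose change turned sign or differed by over 1.5 times without it.

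2 promoters show the kinds of gene that separate these arrays, a microglial receptor and a rod protein. P2ry12 encodes the ADP receptor that steers microglial processes, and its promoter window lies at chr3:59262936-59263235 on the minus strand. Sag encodes the arrestin that switches rhodopsin off, with a window at chr1:87803430-87803729 on the plus strand. It was picked with its values known. Both windows are from RefSeq (GRCm38.p6), run from 250 bases before the transcript start to 50 bases after it, and are printed 5′ to 3′ on the gene's strand. Capitals mark GGAAGT, letters bound by the myeloid factor PU.1, in P2ry12, and GGATTA, letters bound by the photoreceptor factor CRX, in Sag.
P2ry12: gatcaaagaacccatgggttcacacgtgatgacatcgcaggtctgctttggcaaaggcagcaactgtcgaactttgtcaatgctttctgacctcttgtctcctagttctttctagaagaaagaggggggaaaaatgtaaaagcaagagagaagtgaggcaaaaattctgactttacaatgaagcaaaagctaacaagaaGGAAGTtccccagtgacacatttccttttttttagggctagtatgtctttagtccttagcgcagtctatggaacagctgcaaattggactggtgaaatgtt
Sag: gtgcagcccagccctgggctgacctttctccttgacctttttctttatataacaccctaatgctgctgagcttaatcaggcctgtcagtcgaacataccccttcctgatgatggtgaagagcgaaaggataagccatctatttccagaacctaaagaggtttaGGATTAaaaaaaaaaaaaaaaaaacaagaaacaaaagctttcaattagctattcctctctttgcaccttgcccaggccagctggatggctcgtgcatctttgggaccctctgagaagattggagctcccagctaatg

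The P2ry12 match begins 51 bases before the start and the Sag match 87 bases before it. On either strand GGAAGT (reverse complement ACTTCC) occurred in 7809 of 32851 windows of this length (23.8%). It occurred in 7 of the 20 windows of 16 homeostatic microglia genes (35%) and in 2 of the 11 windows of rod genes (18.2%). GGATTA (reverse complement TAATCC) occurred in 2320 of all windows (7.06%), in 3 of the 11 rod windows (27.3%) and in 1 of the 20 microglia windows (5%). The motifs do not overlap each other in the printed windows, and a match describes letters only.

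The genes that define microglia were present at both ages, and at 18 months they split the arrays. Cx3cr1, the fractalkine receptor (feature 6999456), had levels of 10.35, 11.04, 12.77 and 12.41 on the 18-month arrays, against 12.75, 12.62, 12.81 and 12.05 on the 12-month arrays. Replicates 1 and 2 at 18 months were the lowest of the 8, and replicates 3 and 4 lay among the 12-month levels. Its log2 change was −0.92 (SE 0.514, adjusted p = 0.269 in limma), and 0.0317 without those replicates. Aif1, which encodes the microglial marker Iba1, had levels of 10.53, 10.79, 12.35 and 12.29 at 18 months and 12.30, 12.52, 12.35 and 11.70 at 12 months. P2ry12 had 9.93, 10.22, 12.05 and 11.74 at 18 months and 11.87, 12.26, 12.38 and 11.37 at 12 months. The same 2 arrays were lowest in both genes.

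Itgam, which encodes the CD11b of the sort, had levels of 7.68, 8.00, 10.31 and 9.73 at 18 months and 9.83, 9.70, 10.01 and 8.61 at 12 months. Tmem119, a membrane protein that marks resident microglia, had 7.55, 7.54, 10.13 and 10.15 at 18 months and 9.78, 10.48, 9.51 and 8.99 at 12 months. Again replicates 1 and 2 at 18 months were lowest and the groups overlapped. The CSF1 receptor gene Csf1r averaged 11.01 ± 1.17 at 18 months and 11.74 ± 0.50 at 12 months, and the leukocyte phosphatase gene Ptprc (CD45) 10.34 ± 1.19 at 18 months and 11.08 ± 0.63 at 12 months (SD, n = 4 each). None of the 7 identity genes passed in limma, with adjusted p of 0.239 for P2ry12 to 0.506 for Itgam. Without replicates 1 and 2 the changes were 0.10 for Aif1, −0.0783 for P2ry12, 0.48 for Itgam, 0.45 for Tmem119, 0.25 for Csf1r and 0.26 for Ptprc.

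**Figure D1:**
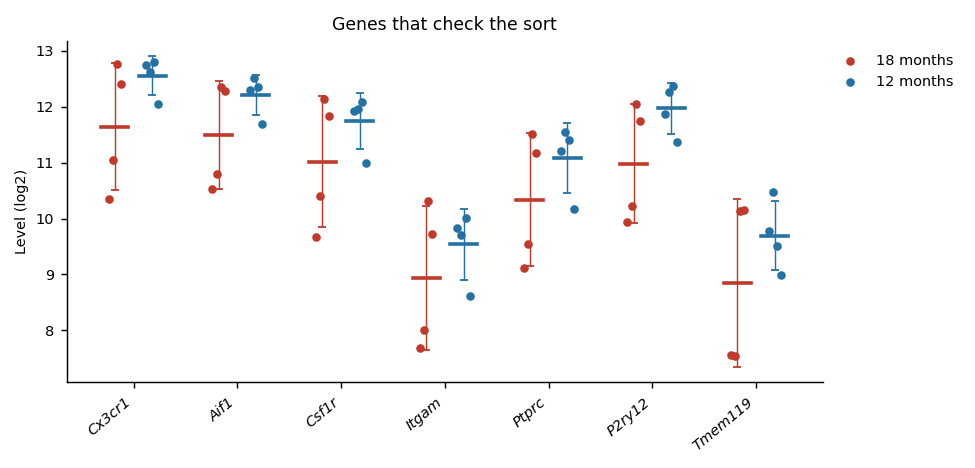
Log2 level (vertical axis) of the 7 genes that check the sort, 1 point per array, for the 4 arrays at 18 months (red, left of each pair) and the 4 at 12 months (blue); bars are means and whiskers SD. In every gene 2 of the red points, replicates 1 and 2, lie below all blue points, while the other 2 lie among or just above them, as for Cx3cr1 with 10.35 and 11.04 against 12.05 to 12.81 at 12 months.

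Across the array no feature passed between the ages. In limma 0 of 16755 features (0%) had an adjusted p below 0.05, and the smallest adjusted p was 0.200. At an unadjusted p below 0.05 there were 3999 features (23.9%), of which 902 stood higher at 18 months (5.38%) and 3097 lower (18.5%). The groups did not overlap in 297 features that stood higher (1.77%) and in 2038 that stood lower (12.2%). The median feature had a log2 change of −0.15 (quartiles −0.34 and 0.13), and only 33.2% of features had a change above 0, so list medians are also given relative to −0.15. A change of at least 1 in size was reached by 425 features on the higher side (2.54%) and 88 on the lower (0.525%).

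The features on the higher side had larger differences. Among those at an unadjusted p below 0.05 the median change was 0.78 on the higher side and −0.42 on the lower, and 265 and 44 of them reached a change of 1 in size. The lower side held more of the dim features. Among the 5585 dimmest (a mean level up to 6.48) 52 stood higher and 1348 lower at that p, whereas among the 1676 brightest 213 stood higher and 33 lower. Centring each array on its median gave 1525 higher and 1134 lower, and quantile normalization 890 higher and 1349 lower. Without 18-month replicates 1 and 2 there were 282 higher and 445 lower. Single arrays moved the counts as well. The higher count was 470 when 18-month replicate 1 was left out, 468 for replicate 2 and 1587 for replicate 3. The lower count was 1206 and 1193 when 18-month replicates 1 and 2 were left out in turn, and 1493 and 1671 for the same numbers at 12 months. With replicate 3 of the 18-month group left out 5 features passed, and with replicate 2 of the 12-month group left out 1 did.

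The 10 genes of smallest p on the higher side had changes of 0.53 to 3.11, and none passed. Efna5 (feature 6856480) encodes ephrin-A5, a membrane-bound ligand of Eph receptors that patterns the retinal projection. Its levels were 8.06, 8.37, 7.67 and 8.72 on the 18-month arrays, against 6.76, 6.64, 6.59 and 6.75 on the 12-month arrays. Every 18-month array lay above every 12-month array, and the 12-month levels were close together. The log2 change was 1.52 (95% interval 1.04 to 2.01, adjusted p = 0.200 in limma), and 1.51 without 18-month replicates 1 and 2.

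The largest difference of these 10 was that of Spa17 (feature 6994705), known from sperm tails and motile cilia. It stood at 9.63, 9.59, 9.38 and 10.00 at 18 months, against 7.27, 5.37, 6.08 and 7.42 at 12 months. The 18-month arrays lay close together while the 12-month arrays spread over 2 units. Its log2 change was 3.11 (95% interval 2.10 to 4.13, adjusted p = 0.200 in limma), and 3.16 without the alike pair. Senp8, which encodes a protease that processes the ubiquitin-like protein NEDD8, had levels of 8.23, 8.49, 7.98 and 8.07 at 18 months and 7.12, 6.69, 5.99 and 6.03 at 12 months. Slc9a7, a cation and proton exchanger gene of the trans-Golgi network, had 8.81, 9.15, 8.47 and 8.54 at 18 months and 7.67, 7.18, 7.67 and 7.58 at 12 months. In both the groups stood apart, with changes of 1.74 and 1.22.

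Pcdhb17, a protocadherin of neuronal adhesion, had levels of 9.12, 9.22, 8.23 and 8.09 at 18 months and 6.50, 5.97, 6.35 and 7.42 at 12 months. It belongs to a cluster of similar genes whose probes may share signal, and it is uncertain for that reason. The other 5 had smaller differences: the exocyst subunit gene Exoc4 (0.77), the bromodomain gene Brd8 (0.53), the endolysosomal lipid phosphatase gene Fig4 (0.79), the zinc finger gene Zc4h2 (1.00) and the translesion DNA polymerase gene Poli (0.68). All 10 had levels without overlap and an unadjusted p below 0.05 also without 18-month replicates 1 and 2, where their adjusted p was 0.820 in limma. These genes were chosen for their small p on arrays that this fit shares, so the result is no separate check of them. Exoc4 was −0.43 when the array number groups were a block in a fit with the 24-month arrays.

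On the lower side the smallest p of the whole array fell on Mpi (feature 6995912), the phosphomannose isomerase that links glycolysis to protein glycosylation. Its levels were 8.02, 7.89, 7.88 and 7.70 at 18 months, against 8.82, 8.95, 8.67 and 8.79 at 12 months. Both groups were tight and stood clearly apart. The log2 change was −0.94 (95% interval −1.20 to −0.68), or −0.78 relative to the median feature, and −1.02 without the alike pair. Its unadjusted p was 2.68e-05 and its adjusted p 0.200 in limma. Tctex1d4, a gene of the dynein light chain family, had levels of 5.41, 5.31, 5.67 and 5.67 at 18 months and 6.42, 6.60, 6.32 and 6.51 at 12 months. This was again a gap without overlap, with a change of −0.95 (SE 0.125).

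The other 8 genes on that side were Hdhd3 (−0.60), the interferon alpha gene Ifna14 (−0.91), Pp2d1 (−0.76), 4930474N05Rik (−0.62), 1700006J14Rik (−0.76), the homeobox gene Dlx3 (−0.69), the BMP ligand gene Bmp10 (−0.49) and the odorant receptor gene Olfr1413 (−0.92). Ifna14 and Olfr1413 belong to families of near-identical genes whose probes may share signal, so their identity is uncertain. Of the 10 genes 5 were among the 5585 dimmest features, against 0 of the 10 on the higher side. Among all features at an unadjusted p below 0.05 in limma, 1348 of 3097 lower and 52 of 902 higher ones were that dim.

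**Figure D2:**
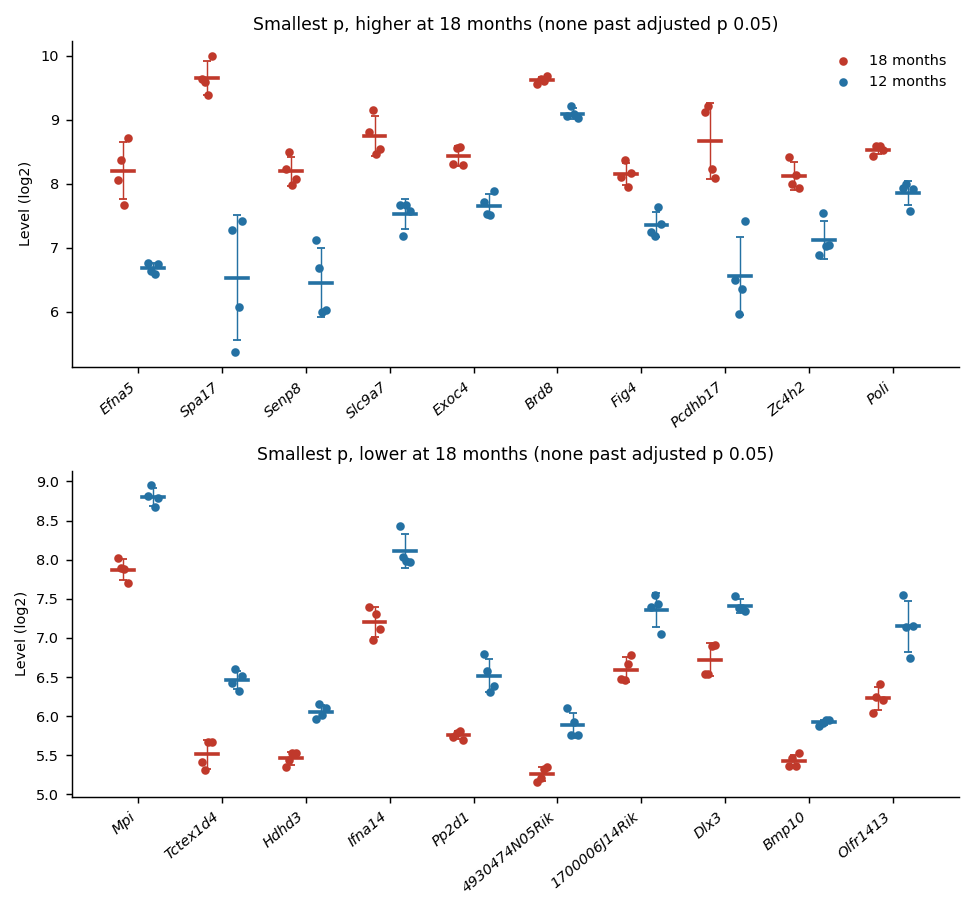
Log2 level (vertical axis) of the 10 genes with the smallest p that stood higher at 18 months (upper panel) and the 10 that stood lower (lower panel), 1 point per array, with 18 months in red left of 12 months in blue; bars are means and whiskers SD. In each gene the 4 red and 4 blue points do not overlap, the widest gap of the means being that of Spa17 at 9.65 ± 0.26 at 18 months against 6.54 ± 0.98 at 12 months, and no gene passed the adjusted threshold.

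4 genes with large differences and no overlap are not named by the rule; they were picked once their values were known. Ube2v2, which encodes a ubiquitin-conjugating enzyme variant of DNA repair, had levels of 11.42, 11.11, 10.25 and 10.48 at 18 months and 7.04, 9.20, 9.05 and 8.51 at 12 months (change 2.36). Slc6a11, a GABA transporter gene of glia, had 10.18, 10.03, 9.10 and 9.95 at 18 months and 7.12, 8.12, 7.91 and 9.01 at 12 months (1.77). Tcim stood at 6.26, 6.60, 7.25 and 6.80 at 18 months and 8.21, 9.71, 8.20 and 7.84 at 12 months (−1.76). For Gsdmd, the pore-forming effector of pyroptosis, the levels were 6.88, 7.23, 8.50 and 8.52 at 18 months and 9.19, 9.31, 9.18 and 8.78 at 12 months, with the alike pair lowest (−1.33, and −0.61 without it). Of all features 54 on the higher side and 10 on the lower had a change of at least 1 in size with no overlap.

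The lists of rod, cone, bipolar and Müller glia markers stood higher at 18 months in the same 2 arrays in which microglial markers were low. In bulk samples fewer cells of a type and less RNA per cell cannot be told apart. All 17 measured rod genes had a change above 0 (33.2% of all features did), with a median of 0.71, or 0.86 relative to the median feature, and 5 of 17 had an unadjusted p below 0.05 on the higher side (5.38% of all features). Pde6g, the inhibitory subunit of the rod phosphodiesterase, had levels of 10.91, 11.28, 10.21 and 10.51 at 18 months and 9.48, 8.72, 9.34 and 10.37 at 12 months. It was highest in 18-month replicates 1 and 2, and 12-month replicate 4 reached the lower 18-month levels. The rod transducin gene Gnat1 had 13.65, 13.67, 12.69 and 13.29 at 18 months and 12.61, 12.06, 12.50 and 13.29 at 12 months (0.71, and 0.37 without the pair). Sag averaged 12.14 ± 0.49 at 18 months and 11.55 ± 0.40 at 12 months (SD, n = 4 each; change 0.59, SE 0.281, and 0.24 without the pair). The median of the rod list was 0.24 without 18-month replicates 1 and 2, and that of all features −0.0959.

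Cone genes had a median change of 0.46 over 12 (2 at an unadjusted p below 0.05, both higher, against 5.38% of all features), and −0.0331 without that pair. The cone channel gene Cngb3 had 9.03, 8.72, 6.38 and 7.47 at 18 months and 6.58, 6.45, 6.14 and 7.11 at 12 months, so that 2 arrays carried its difference (1.33, and 0.35 without the pair). The cone transducin gene Gnb3 had a change of 1.05 (0.41 without the pair), and the calcium sensor gene Guca1a 0.39 (−0.0259 without it). Over 12 bipolar genes the median change was 1.01, the highest of the 41 lists, and 0.18 without the pair. At an unadjusted p below 0.05 there were 3, all higher (5.38% of all features). A change above 0 was found in 9 of the 12 (33.2% of all features), and Bhlhe23 lay on the other side (−0.35, and −0.18 without the pair). Gng13, the G protein subunit of ON bipolar cells, had levels of 11.02, 10.80, 8.67 and 8.99 at 18 months and 7.98, 6.71, 8.47 and 9.11 at 12 months. Replicates 1 and 2 at 18 months stood apart from all other arrays, with a change of 1.81, and 0.77 without them. Prkca, the kinase used to mark rod bipolar cells, had a change of 1.18 (0.59 without the pair).

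Müller glia and astrocyte genes had a median of 0.69 over 17, and 0.29 without the pair, and 6 of 17 had an unadjusted p below 0.05, all higher (5.38% of all features). The glutamate transporter gene Slc1a3 had levels of 10.56, 10.58, 9.30 and 10.17 at 18 months and 7.96, 8.15, 8.23 and 9.90 at 12 months. Only 12-month replicate 4 reached the 18-month range. Rlbp1, the retinoid carrier of Müller glia and pigment epithelium, had 10.26, 10.30, 8.59 and 9.80 at 18 months and 8.02, 7.25, 7.92 and 9.28 at 12 months. Without the pair the changes were 1.18 for Slc1a3 and 1.08 for Rlbp1, against 1.59 and 1.62 with it. Glul, the glutamine synthetase of the same cells, averaged 13.20 ± 0.15 on the 18-month arrays and 13.13 ± 0.19 on the 12-month arrays (SD, n = 4 each; change 0.0649, and −0.0418 without the pair). No member of these 4 lists passed in limma, with a smallest adjusted p of 0.200.

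A list's score on an array, the mean of its members after each is centred over the 8 arrays, shows the opposed pattern. The homeostatic microglia score was −1.45, −1.15, 0.68 and 0.36 at 18 months and 0.48, 0.73, 0.70 and −0.35 at 12 months. The rod score was 0.71, 0.95, −0.50 and 0.25 at 18 months and −0.53, −0.82, −0.36 and 0.28 at 12 months. The pair of 18-month arrays was lowest in the first and highest in the second, and 12-month replicate 4 was the lowest and the highest of its own group. Of the 41 list scores, 22 placed both arrays of the pair below the other 6 and 9 placed both above. The part that the mixture of cells has in any gene's change was not tested.

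**Figure D3:**
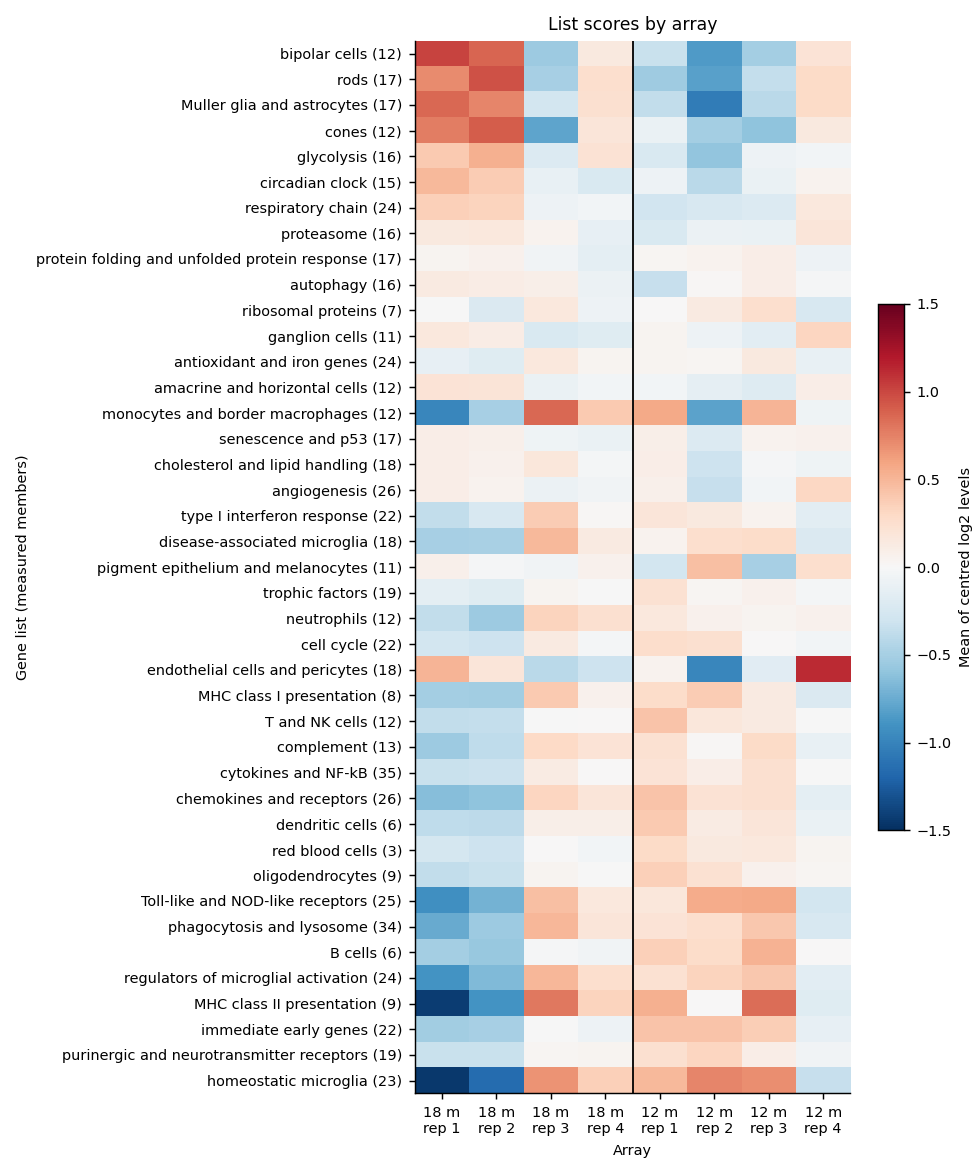
Score of each gene list (rows, with the number of measured members) on each array (columns, 18 months left of the line, 12 months right); colour is the mean of centred log2 levels, red above and blue below the mean of the 8 arrays. Replicates 1 and 2 at 18 months are red for bipolar, rod, Müller and cone genes and blue for homeostatic microglia (−1.45 and −1.15) and MHC class II genes. Single other arrays are as deep in some of these rows, such as 12-month replicate 2 in Müller genes (−1.05, against 0.86 and 0.73 for the pair).

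Markers of other immune cells that carry or could accompany CD11b gave no member past the threshold. Over 12 monocyte and border macrophage genes the median was −0.13, slightly above the median feature, and 0.68 without 18-month replicates 1 and 2. The mannose receptor gene Mrc1 had levels of 6.69, 8.94, 11.18 and 10.60 at 18 months and 10.99, 8.86, 10.94 and 8.68 at 12 months, a spread of several units within both ages (−0.51, and 1.02 without the pair). F13a1, the coagulation factor XIII gene of such macrophages, had 5.91, 7.45, 9.87 and 9.15 at 18 months and 8.17, 6.77, 9.10 and 6.36 at 12 months, with full overlap (0.49, and 1.91 without the pair). Over 12 neutrophil genes the median was −0.24 (−0.0691 without the pair) and 4 had an unadjusted p below 0.05 on the lower side (18.5% of all features), among them the myeloperoxidase gene Mpo (−0.41, and −0.25 without the pair) and Ngp (−0.46). The granulocyte colony-stimulating factor receptor gene Csf3r was −0.98, and 0.15 without the pair. The calgranulin genes S100a8 and S100a9, picked with their values known, lay on the other side with changes of 0.46 and 0.93, and 1.08 and 2.30 without the pair.

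Lymphocyte lists had medians below that of all features. Of 12 T and natural killer cell genes 7 had an unadjusted p below 0.05, all lower (18.5% of all features). The list median was −0.34, or −0.18 relative to the median feature, and −0.14 without the pair. These genes were dim, and the brightest, Cd2, averaged 6.09 at 18 months and 6.54 at 12 months. Among the 5585 dimmest features (a mean level up to 6.48) the median change was −0.21, and 1348 stood lower at that p. The T cell receptor chain gene Cd3e averaged 5.76 ± 0.24 at 18 months and 6.34 ± 0.29 at 12 months (−0.58, and −0.38 without the pair), and the granzyme gene Gzma 5.55 ± 0.14 at 18 months and 6.32 ± 0.54 at 12 months (SD, n = 4 each). B cell genes had a median of −0.46 over 6 (−0.21 without the pair), with the antigen receptor gene Cd79a at −0.75 (−0.44 without it) and its partner Cd79b at −1.40 (−0.87 without it). Cd79b stood at 6.62, 6.40, 7.80 and 7.33 at 18 months and 8.21, 8.57, 10.11 and 6.87 at 12 months, so that 12-month replicate 3 was far above and replicate 4 within the 18-month range. Dendritic cell genes had a median of −0.39 over 6 (−0.13 without the pair), with the lectin gene Siglecg at −0.41 (−0.25 without it).

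The lists of inner retinal neurons other than bipolar cells had medians close to 0. Amacrine and horizontal genes had a median of −0.11 over 12 (also −0.11 without the pair), which was 0.109 after quantile normalization and 0.0345 after median centring. At an unadjusted p below 0.05 there were 1 higher and 3 lower (5.38% and 18.5% of all features). Among the lower were Chat (−0.32, and −0.16 without the pair) and Lhx1 (−0.33, and −0.16 without it). The eye field gene Pax6 had the largest change, 1.55 (0.94 without the pair). Pax6 had levels of 10.04, 9.82, 8.54 and 8.89 at 18 months and 7.72, 6.74, 7.64 and 9.01 at 12 months, with 12-month replicate 4 inside the 18-month range. Ganglion cell genes had a median of −0.0429 over 11 (−0.18 without the pair), which turned positive under both scalings (0.103 after median centring and 0.107 after quantile normalization). The ganglion cell RNA-binding protein gene Rbpms had 8.41, 8.50, 8.46 and 7.80 at 18 months and 9.06, 9.34, 8.76 and 9.48 at 12 months. Its groups did not overlap, and its change was −0.87 (SE 0.214), and −1.03 without the pair. Thy1 was 0.24, and −0.72 without the pair.

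The lists of vascular, pigment, oligodendrocyte and blood markers had medians below that of all features. Over 18 endothelial and pericyte genes the median was −0.30 (−0.28 without the pair) and the mean −0.00616, with 6 of 18 above 0 and the clotting factor gene Vwf at −0.56. The VEGF receptor genes Kdr and Flt1, picked with their values known, lay on the other side at 1.28 and 1.01, and at 0.65 and 0.41 without the pair. The pericyte gene Rgs5 had 2 features that disagreed, 1.19 (0.77 without the pair) and −0.0355, and the brighter ran from 6.87 to 12.47 within the 12-month arrays. Over 11 pigment epithelium and melanocyte genes the median was −0.17 (−0.0356 without the pair). Pmel, the fibril protein of melanosomes, had levels of 6.24, 6.20, 6.52 and 6.74 at 18 months and 7.21, 7.38, 6.97 and 7.30 at 12 months, without overlap (−0.79, SE 0.156). The transthyretin gene Ttr had 10.60, 10.15, 10.60 and 10.17 at 18 months and 7.09, 10.86, 6.53 and 10.25 at 12 months, where 2 arrays were low and 2 were not. Oligodendrocyte genes had a median of −0.42 over 9 (−0.17 without the pair), with 5 at an unadjusted p below 0.05, all lower (18.5% of all features), and the lineage factor gene Olig2 at −0.51 (−0.24 without the pair). The 3 measured red blood cell genes had a median of −0.40 (−0.17 without the pair), with the band 3 gene Slc4a1 at −0.48 (−0.25 without it).

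The homeostatic program of microglia had the lowest median of all lists, and this rested on the alike pair. All 23 measured genes had a change below 0, ranging from −1.13 to −0.0765 around a median of −0.80 (−0.65 relative to the median feature). None reached an unadjusted p below 0.05, against 23.9% of all features in either direction. The oxysterol receptor gene Gpr183 had levels of 8.46, 8.42, 10.92 and 9.51 at 18 months and 11.00, 10.47, 10.73 and 9.65 at 12 months. The TGF-beta receptor gene Tgfbr1, whose signal keeps microglia in their resting state, had 9.38, 9.85, 11.53 and 11.32 at 18 months and 11.54, 11.93, 11.59 and 11.00 at 12 months. In both genes the pair was lowest, and the changes were −1.13 for Gpr183 and −0.997 for Tgfbr1, against −0.25 and −0.0933 without it. Tyrobp, the adaptor DAP12 of TREM2, was −0.49 (−0.0727 without the pair). Without 18-month replicates 1 and 2 the list median was 0.0763.

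Genes of activated and disease-associated microglia had no member that passed the test. Over 18 disease-associated genes the median was −0.17, close to the median feature, and 0.20 without the pair. At an unadjusted p below 0.05 there were 0 of 18 (23.9% of all features in either direction). Trem2, the lipid receptor of this state, was −1.03 with the pair and −0.0259 without it, and the growth factor gene Igf1 was 0.61 with it and 0.0307 without it. Regulators of microglial activation had a median of −0.48 over 24, and 0.0786 without the pair. Of these Socs1, an inhibitor of cytokine signalling, had levels of 7.29, 7.29, 7.80 and 7.75 at 18 months and 8.23, 8.01, 7.98 and 8.02 at 12 months, without overlap (−0.53, SE 0.155, and −0.28 without the pair).

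Antigen presentation and complement showed the same dependence on 2 arrays. MHC class II genes had a median of −0.52 over 9, and 0.29 without the pair, with list scores of −1.42, −0.90, 0.79 and 0.33 at 18 months and 0.54, 0.00475, 0.83 and −0.18 at 12 months. The costimulatory gene Cd80 stood at 5.78, 6.39, 8.20 and 6.46 at 18 months and 7.42, 8.49, 8.84 and 7.57 at 12 months, with 18-month replicate 3 among the 12-month levels (−1.37, and −0.75 without the pair). Cd40, another costimulatory receptor, had 6.37, 6.35, 6.73 and 6.71 at 18 months and 7.26, 6.90, 6.97 and 7.07 at 12 months, without overlap (−0.51, and −0.33 without the pair). Over 8 MHC class I genes the median was −0.34, and 0.10 without the pair, with the peptide loading gene Tapbp at −0.59. Complement genes had a median of −0.36 over 13, and 0.0664 without the pair. The clusterin gene Clu, also a Müller glia marker, was 1.19 (0.65 without the pair) and the protease gene C1ra −0.36 (−0.19 without it).

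Sensors and messengers of inflammation stood near or below the median feature. Interferon genes had a median of −0.15 over 22, close to that of all features, and 0.0497 without the pair. Ifit1, an antiviral effector, had levels of 7.67, 8.13, 8.28 and 5.82 at 18 months and 5.62, 6.06, 6.01 and 6.17 at 12 months, so 3 of the 4 arrays at 18 months were high and replicate 4 was not (1.50, SE 0.500). The interferon regulatory factor gene Irf3 was −0.45. Of 25 Toll-like and NOD-like receptor genes 2 had an unadjusted p below 0.05, both lower (18.5% of all features), and the median was −0.43, and 0.0313 without the pair. The peptidoglycan sensor gene Nod2 was −0.26 (−0.15 without the pair) and the RNA sensor gene Tlr8 −0.42 (−0.28 without it).

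Cytokine and NF-kB genes had a median of −0.37 over 35, with 1 higher and 9 lower at an unadjusted p below 0.05 (5.38% and 18.5% of all features), and −0.12 without the pair. The TNF receptor gene Tnfrsf1a had levels of 7.08, 7.12, 7.67 and 7.31 at 18 months and 7.99, 7.83, 8.97 and 7.72 at 12 months, without overlap (−0.83, SE 0.282). The NF-kB inhibitor gene Nfkbie was −0.49 (−0.23 without the pair). Over 26 chemokine and receptor genes the median was −0.37 (−0.12 without the pair), with 1 higher and 5 lower at that p. The neutrophil chemokine gene Cxcl1 had 6.02, 5.94, 6.50 and 6.27 at 18 months and 7.26, 6.51, 6.71 and 6.76 at 12 months. These levels came close without overlapping (−0.63), and the lymph node homing receptor gene Ccr7 was −0.56.

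**Figure D4:**
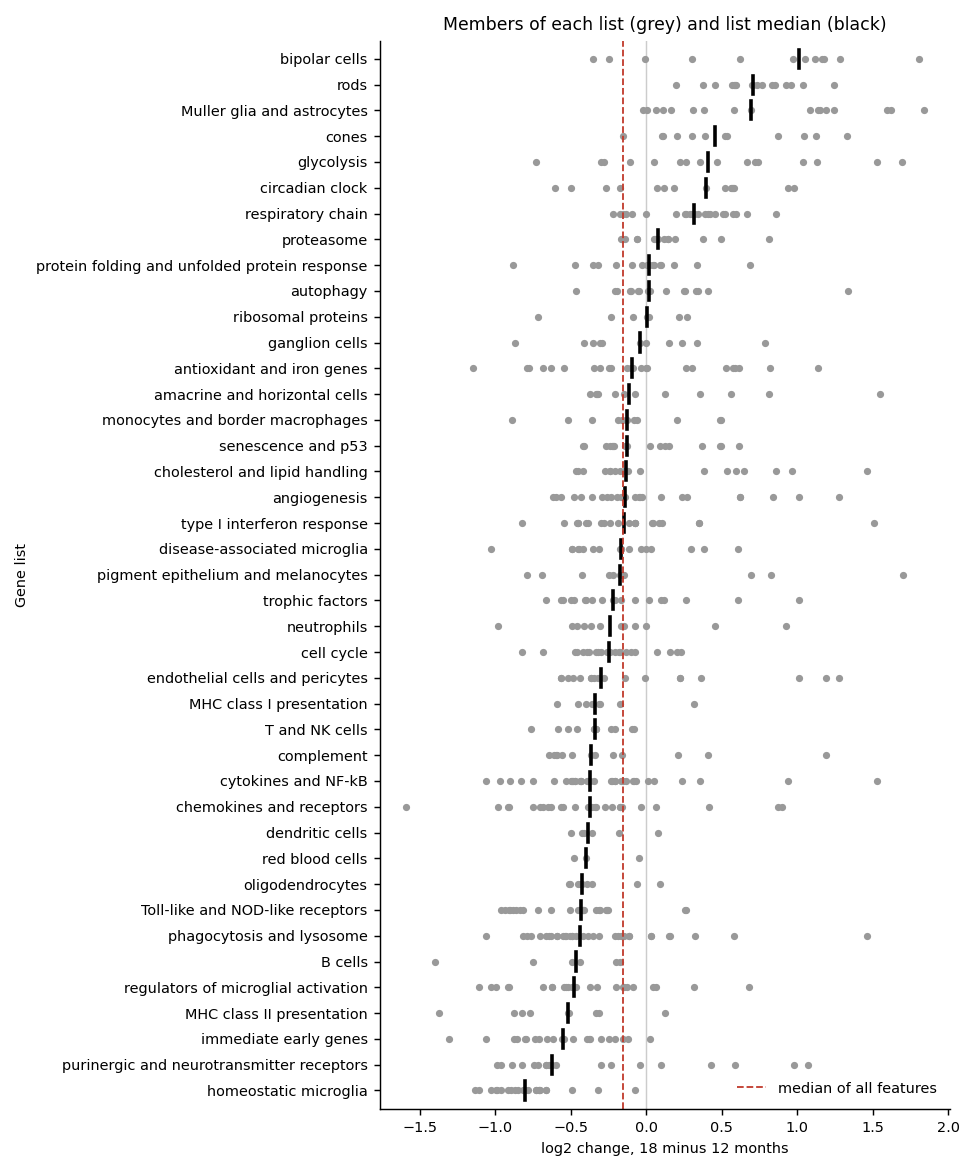
Log2 change, 18 minus 12 months (horizontal axis), of every measured member (grey points) of the 41 gene lists (rows, ordered by median), with the list median (black bar) and the median of all features, −0.15 (dashed red line). Medians run from 1.01 for bipolar cells to −0.80 for homeostatic microglia, and no single member passed the adjusted threshold.

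Phagocytosis and lysosome genes had a median of −0.44 over 34, and 0.12 without 18-month replicates 1 and 2. Against that median the scavenger receptor and fatty acid transporter gene Cd36 had levels of 9.09, 8.75, 9.36 and 8.43 at 18 months and 8.68, 7.05, 7.79 and 6.29 at 12 months. All but 1 of the 12-month arrays lay below the 18-month range, and the change was 1.46 (SE 0.475), and 1.45 without the pair. Syk, the kinase below Fc receptors and DAP12, was −1.06, and −0.49 without the pair. Over 19 trophic factor genes the median was −0.22 (−0.10 without the pair), with 5 at an unadjusted p below 0.05, all lower (18.5% of all features). The GDNF family ligand gene Nrtn had 6.22, 6.29, 6.86 and 6.75 at 18 months and 7.30, 7.34, 7.18 and 6.95 at 12 months, without overlap (−0.66, and −0.39 without the pair), and Gdnf itself was −0.48 (−0.22 without it).

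Angiogenesis genes had a median of −0.14 over 26 (−0.0302 without the pair), with 2 higher and 4 lower at an unadjusted p below 0.05 (5.38% and 18.5% of all features). Vegfa, the main vascular growth factor gene of the retina, had levels of 9.98, 9.90, 8.97 and 9.16 at 18 months and 9.01, 8.54, 8.97 and 9.01 at 12 months. The difference of 0.62 lay in the alike pair and was 0.18 without it. The angiopoietin gene Angpt2 was −0.48, and −0.52 without the pair. Receptors for purines and transmitters had a median of −0.62 over 19, and −0.0783 without the pair. The bradykinin receptor gene Bdkrb1 had 5.35, 5.38, 5.92 and 5.93 at 18 months and 6.74, 6.56, 6.52 and 6.30 at 12 months, without overlap and with a change of −0.89 (SE 0.177), and −0.61 without the pair. Gria1, a glutamate receptor subunit gene, was 0.98 (0.45 without the pair).

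Lists of energy metabolism had medians above 0. Respiratory chain genes had a median of 0.32 over 24, or 0.47 relative to the median feature, with 18 of 24 above 0 (33.2% of all features) and 5 higher and 0 lower at an unadjusted p below 0.05 (5.38% and 18.5% of all features). Ndufb8, a subunit of complex I, had levels of 9.88, 9.91, 9.67 and 10.35 at 18 months and 9.20, 9.06, 9.29 and 9.60 at 12 months. Sdhc, a membrane anchor of complex II, had 9.35, 9.53, 9.27 and 9.98 at 18 months and 8.55, 8.97, 9.21 and 9.03 at 12 months. In both genes the groups did not overlap, and without the pair the changes were 0.72 and 0.69, against 0.67 and 0.59 with it. The list median without the pair was 0.0654.

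Glycolysis genes had a median of 0.41 over 16, and 0.17 without the pair, with 4 higher at an unadjusted p below 0.05 (5.38% of all features). The triosephosphate isomerase gene Tpi1 had levels of 11.08, 11.30, 9.83 and 11.01 at 18 months and 8.91, 8.09, 9.73 and 9.72 at 12 months. Its groups came close at 9.83 and 9.73 without overlapping, with a change of 1.69 (SE 0.445), and 1.31 without the pair. Aldoc, the aldolase of brain and retina, was 1.53. Antioxidant and iron genes had a median of −0.0949 over 24, which was 0.0509 after median centring and 0.0757 without the pair. The transferrin receptor gene Tfrc was 1.14 (0.52 without the pair) and the NADPH oxidase subunit gene Cyba −1.15 (−0.39 without it). Cholesterol and lipid genes had a median of −0.13 over 18, which was 0.0144 after median centring and 0.0664 without the pair, with the sterol synthesis gene Hmgcs1 at 0.96 (0.39 without it) and the liver X receptor gene Nr1h3 at −0.46.

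Single genes of protein quality control stood apart. Psmc1, an ATPase of the proteasome cap, had levels of 8.95, 8.97, 9.06 and 8.51 at 18 months and 7.75, 8.14, 8.12 and 8.24 at 12 months. The groups did not overlap, and the change was 0.81 (95% interval 0.44 to 1.18, adjusted p = 0.200 in limma), and 0.72 without the pair. The proteasome list had a median of 0.0770 over 16, which was −0.0253 after quantile normalization and −0.0146 without the pair. Wipi1, a phosphoinositide-binding protein of early autophagosomes, had 9.34, 9.30, 7.93 and 8.54 at 18 months and 7.01, 7.31, 7.61 and 7.84 at 12 months (1.34, and 0.80 without the pair). The autophagy receptor gene Sqstm1 was 0.41, and 0.46 without the pair, also without overlap. The autophagy list had a median of 0.0179 over 16 (0.0594 without the pair).

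Genes of protein folding had a median of 0.0180 over 17, which was −0.0859 after quantile normalization and −0.16 without the pair, with the stress transcription factor gene Xbp1 at −0.47 (−0.25 without it) and the co-chaperone gene Dnaja1 at 0.69. Only 7 of 22 listed ribosomal protein genes were measured, and their median was 0.00717, which was −0.144 after quantile normalization and 0.13 without the pair. Rpl10a was −0.72, with 12-month replicate 1 far above the rest at 9.62.

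Proliferation and senescence lists had medians near that of all features. Cell cycle genes had a median of −0.25 over 22 (−0.0996 without the pair), with 0 higher and 4 lower at an unadjusted p below 0.05 (5.38% and 18.5% of all features). The transcription factor gene E2f1 was −0.46 (−0.24 without the pair) and the replication helicase gene Mcm3 −0.82, and −0.24 without the pair. Senescence and p53 genes had a median of −0.13 over 17, which was 0.0160 after median centring and −0.11 without the pair. Cdkn2a, which encodes the cell cycle inhibitor p16 and ARF, had levels of 6.76, 6.87, 7.48 and 7.41 at 18 months and 7.76, 7.42, 7.51 and 7.47 at 12 months, with overlap and a change of −0.41 (SE 0.189), and −0.0973 without the pair. The p53 target gene Bbc3 was −0.42 (−0.22 without it). Circadian clock genes had a median of 0.39 over 15, and 0.0696 without the pair, with the core activator gene Arntl at 0.94, and 0.18 without it.

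Immediate early genes are those that cells switch on within minutes of stimulation. Of 22 genes 11 had an unadjusted p below 0.05, all lower (18.5% of all features), and 3 had no overlap (12.2% of all features stood lower without overlap). Their median was −0.55 (−0.39 relative to the median feature), and −0.26 with 18-month replicates 1 and 2 left out. Fos had levels of 7.19, 7.23, 7.34 and 7.63 at 18 months and 8.70, 8.31, 8.03 and 7.56 at 12 months. Egr1 had 7.24, 7.10, 7.52 and 7.82 at 18 months and 8.46, 8.09, 8.05 and 7.70 at 12 months. In both genes 12-month replicate 4 lay within the 18-month range. Ier2 had 6.70, 6.75, 6.81 and 6.66 at 18 months and 7.48, 7.32, 8.35 and 6.95 at 12 months, without overlap. The changes were −0.80 for Fos, −0.66 for Egr1 and −0.79 for Ier2, against −0.67, −0.41 and −0.79 without the pair.

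Leaving out 18-month replicates 1 and 2 brought nearly all list medians close to 0. Of the 41 lists 40 then had a median within 0.3 of 0, against 17 with all 8 arrays, and the median turned sign in 15. The exception by that measure was the list of monocytes and border macrophages, at 0.68. MHC class II and Müller genes, both at 0.29, lay just inside it. The median of all features was then −0.0959, so lists above 0 lay further from that median than from 0. Among lists that kept their sign, the highest medians were those of Müller (0.29), rod (0.24), bipolar (0.18) and glycolysis genes (0.17). The lowest were those of endothelial and pericyte (−0.28), immediate early (−0.26) and B cell genes (−0.21). Adding the 24-month arrays with the array number groups as a block gave larger medians for several lists, with −0.22 for all features. They were −2.03 for homeostatic microglia, −1.69 for MHC class II, 1.69 for Müller glia and 1.43 for cones. In that fit the number groups are joined by the 24-month arrays alone, so these medians lean on single arrays. The homeostatic microglia scores at 24 months were −1.84 and 0.57 (numbers 7 and 8) and 0.67 and 0.39 (numbers 11 and 13).

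**Figure D5:**
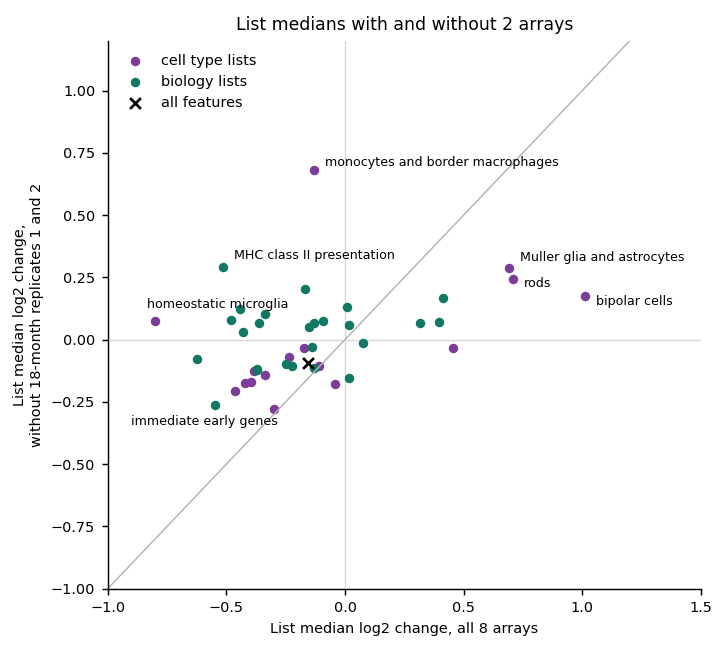
Median log2 change of each list with all 8 arrays (horizontal axis) against the median without 18-month replicates 1 and 2 (vertical axis), for 16 cell type lists (purple) and 25 biology lists (green); the cross is the median of all features and the grey diagonal marks equal values. Points gather around 0 on the vertical axis, with homeostatic microglia at 0.0763 there against −0.80 with all arrays, and bipolar cells at 0.18 against 1.01.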

How the data were processed

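The deposited levels are log2 values. The submitters' processing notes name RMA, which corrects background, equalises arrays at probe level and gives 1 summary per feature. Its version, probe sets and filters were not given in the sources used here. All columns of values were used (0 left out), and no detection calls were used. The number of arrays limits the precision. Amplification of small amounts can add spread, and low values are compressed towards a floor.

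The 16755 features were tested in limma 3.58.1 (R 4.3.3), using lmFit and eBayes with neither trend nor robust option, on the 8 arrays at 18 and 12 months, with Benjamini-Hochberg adjustment over all features, a threshold of 0.05 and no fold threshold. Symbols came from the array's annotation: 14996 features had 1 symbol, 1019 several and 740 none. Only the first kind was named, and 14941 of them matched a GRCm38.p6 gene table by Entrez identifier with 0 differing. Of 847 names in 41 lists 685 were measured, as 646 distinct features. Each gene had 1 feature, the brightest by its mean over the 8 arrays, and lists are described by counts and medians, with no test. Means and medians differed in sign for 7 lists.

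Members, lists and alternatives were chosen with earlier results of these data known. With under 5 features passing, the rule named the 10 smallest p in each direction, up to 4 members of each list by p and each cell type list's brightest member, of which a selection is given. Outside it, chosen after their values were seen, are Ube2v2, Slc6a11, Tcim, Gsdmd, Ddx10, Pwwp3b, Lrch2, Sag, S100a8, S100a9, Kdr and Flt1. The fit was tested on simulated data in which every array was drawn independently. The likeness of 18-month replicates 1 and 2 was therefore not part of that test. Alternatives covered dim features, 2 scalings, the variance model, array weights, the 24-month arrays, 2 blocks, averaging or leaving out 18-month replicates 1 and 2, single arrays and 1 feature per gene. Same-numbered replicates had correlations of −0.34 to 0.15 in their deviations. Those of 18-month replicates 1 and 2 with 12-month replicate 4 were 0.58 and 0.53, along the split of the arrays described above. With that split in the deviations, the check cannot decide whether the numbers pair the arrays, and the main fit was unpaired.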

Additional observations from a re-analysis of the deposited data

Results flagged for a closer look

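In 12 of 310 sets of 4 arrays, taken from the named genes and list scores, 1 array stood far from the other 3 of its age. Chance alone gives about 1 such set in 20 where sets are unrelated and not picked by their values. These sets share arrays and many were picked by their values, so 12 of 310 cannot be judged against that rate. Pwwp3b, Lrch2 and Ddx10 were picked after their values were seen. Each passed only when the array on which it stood apart was left out, so its flag was fixed in advance. At 18 months Rbpms was lowest on replicate 4 (7.80, the others 8.41 to 8.50), and on replicate 3 both Pwwp3b (5.02, the others 6.58 to 6.81) and Lrch2 (5.71, the others 7.42 to 7.77) were lowest. On 12-month replicate 4, which stood lowest of its age in the homeostatic microglia score, Csf1r was lowest (11.00, the others 11.92 to 12.09), Slc1a3 (9.90, the others 7.96 to 8.23) and Tfrc (9.66, the others 8.43 to 8.60) were highest, and the immediate early gene score was lowest (−0.13, the others 0.37 to 0.43). On 12-month replicate 2 Ddx10 was highest (9.13, the others 7.07 to 7.31), while Vegfa (8.54, the others 8.97 to 9.01) and the senescence and p53 score (−0.21, the others 0.05 to 0.09) were lowest. On 12-month replicate 1 Ifna14 (8.43, the others 7.97 to 8.04) and Socs1 (8.23, the others 7.98 to 8.02) were highest.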

How the results depend on the processing

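In limma 0 features passed under 17 of the 19 alternatives. The exceptions were 1 feature without 12-month replicate 2 (Ddx10, 1.51, adjusted p = 0.0381) and 5 without 18-month replicate 3 (Efna5, 1.70, adjusted p = 0.0467; Pwwp3b, 1.67; Lrch2, 1.99; and features 6971403 and 7009941, which have no symbol, 2.05 and 2.73), so the count over single arrays left out ran from 0 to 5. At an unadjusted p below 0.05 the higher count of 902 became 1525 after median centring, 1794 with array weights (a fit that stopped before converging), 465 with the alike 18-month replicates averaged and 282 without them, and 468 to 1587 over single arrays left out. The lower count of 3097 became 1274 without the 5585 dimmest features, 1134 after median centring, 1349 after quantile normalization, 5145 with array weights, 1036 with the replicate number as a block, 1224 with the pair averaged and 445 without it, and 1193 to 3920 over single arrays. The array weights were 1.47 and 1.34 for 18-month replicates 1 and 2, and 0.60 and 0.65 for replicates 3 and 4, so that fit leans on the alike pair. With the replicate block 0 features passed and 746 stood higher. Of the 41 list medians 19 lay above that of all features, and 15 to 26 did under the alternatives.

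Of 2148 gene values under alternatives 22 turned sign, in 15 of 114 genes. Without both 18-month replicates 1 and 2 these were Cx3cr1 (0.0317), Aif1 (0.10), Csf1r (0.25), Itgam (0.48), Ptprc (0.26), Tmem119 (0.45), Mrc1 (1.02), Csf3r (0.15), Guca1a (−0.0259), Glul (−0.0418) and Thy1 (−0.72). Over single arrays left out Mrc1 ran from −1.12 to 0.37, F13a1 from −0.0969 to 1.22, Glul from −0.0142 to 0.13, Thy1 from −0.14 to 0.67 and Rgs5 from −0.0582 to 1.81. F13a1 was −0.22 with array weights and Thy1 −0.0813 with the pair averaged. With the array number groups as a block and the 24-month arrays added, Exoc4 was −0.43, Gzma 0.22 and the homeostatic microglia median −2.03 (−0.80 with the 8 arrays), a fit in which the 24-month arrays alone join the number groups. The cause was not tested. Signal over background could not be judged for single features, since no detection calls were used.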
